A study of Mus musculus with 4 samples.

Results

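The genes described here are the histone genes of the mouse retina: those of the histone clusters, whose symbols start with Hist1h, Hist2h, Hist3h or Hist4h, and the replacement variants H1f0, H1fx, H2afj, H2afv, H2afx, H2afy, H2afy2, H2afz, H3f3a and H3f3b. The members were chosen by symbol and selected on 1 measured value, a normalized count above 0 in at least 1 library. This gave 72 genes, 62 clustered and 10 replacement variants, of 30816 genes above 0 in the table. By another division, 8 were linker histones and 64 core histones. A further 8 clustered genes, Hist1h2an, Hist1h2ao, Hist1h2ap, Hist1h2bl, Hist1h2bq, Hist1h2br, Hist1h4m and Hist2h3c1, were at 0 in all libraries. Clustered genes just inside the rule had a single read in 1 library. This was a WT library for Hist1h1t and Hist1h2ag, for example, and a Q344X library for Hist1h2bf and Hist1h3h. RNA sequencing compared retinas of 3-week-old mice that carry Q344X, a rhodopsin mutation of autosomal dominant retinitis pigmentosa (Q344X, 2 libraries), with retinas of 3-week-old wild-type mice (WT, 2 libraries). The question was which transcripts the mutation alters. Copy number and origin of the allele, strain, sex and litter are not stated in the labels, which also do not tie each library to 1 animal, so p-values measure only the spread between libraries.

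Clustered histone genes serve DNA replication. Their mRNAs usually have no introns and end in a conserved stem-loop bound by the protein Slbp, instead of a poly(A) tail, although differentiated cells are known to make polyadenylated transcripts from some of these genes at signals beyond the stem-loop. Replacement variants have introns in most cases, are polyadenylated, and supply histones to cells that no longer divide. Linker histones bind nucleosomes where DNA enters and leaves, core histones form the nucleosome itself, and rod photoreceptors of the mouse are known for an inverted nucleus with heterochromatin at its centre.

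All 4 libraries were made from poly(A)-selected RNA and held between 18452679 and 19706573 reads in genes, so that 1 read was worth 0.960 to 1.04 normalized counts. Libraries of 1 genotype also differed from each other. Lens marker genes summed to 187262 and 5511 normalized counts in Q344X replicates 1 and 2, against 205236 and 251416 in WT replicates 1 and 2. Rod markers summed to 343653 and 394075 in Q344X retinas, against 928094 and 1056990 in WT retinas, with 3 of 9 markers lower, and none of the 9 was at 0. Cone markers summed to 11642 and 12368 in Q344X retinas, against 27594 and 25237 in WT retinas, with 4 of 7 lower. Markers of dividing cells did not separate the groups, at 736 and 422 in Q344X retinas and 782 and 498 in WT retinas, with 0 of 7 past the threshold in either direction. Over all tested genes, 9.10% were lower and 5.46% higher. In bulk tissue, fewer cells of a type and less RNA per cell cannot be told apart.

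A stem-loop of the histone kind was found in an annotated transcript of 42 of the 62 clustered genes and, among the replacement variants, only in H2afx, against 0.351% of 21951 protein-coding genes. The most frequent stem-loop, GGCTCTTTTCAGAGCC, stood in 23 of these genes. The sequences below are those of genes with the highest or the most different levels, from GENCODE M21 transcripts on GRCm38, with the stem and loop in capitals and 5 bases on either side; coordinates are those of the capitals.
Hist1h1c, chr13:23739512-23739527, plus strand: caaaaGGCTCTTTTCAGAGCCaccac
Hist1h1e, chr13:23621782-23621797, minus strand: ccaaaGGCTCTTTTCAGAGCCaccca
Hist1h2ac, chr13:23683477-23683492, minus strand: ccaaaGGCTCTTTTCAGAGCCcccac
Hist1h2be, chr13:23585531-23585546, minus strand: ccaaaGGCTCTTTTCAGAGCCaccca
Hist1h4i, chr13:22040966-22040981, minus strand: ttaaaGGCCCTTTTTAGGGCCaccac
Hist2h4, chr3:96262939-96262954, minus strand: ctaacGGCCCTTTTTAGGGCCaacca
Hist2h3c2, chr3:96238485-96238500, minus strand: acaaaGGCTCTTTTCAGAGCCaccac
Hist3h2a, chr11:58955172-58955187, plus strand: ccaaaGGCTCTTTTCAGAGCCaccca
Hist3h2ba, chr11:58949349-58949364, plus strand: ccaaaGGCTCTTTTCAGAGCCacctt
H2afx, chr9:44335240-44335255, plus strand: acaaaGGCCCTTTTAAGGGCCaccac
The H4 genes and H2afx carry a stem with other bases than the H1, H2A, H2B and H3 genes shown.

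Clustered histone genes were lower and replacement variants level or higher in the Q344X retina. Among the 19 clustered genes that could be tested (mean of at least 10 normalized counts over the 4 libraries), 13 fell, 0 rose and 6 did not pass the threshold, with a median log2 fold change of -2.77. Of all 16833 genes tested, 9.10% fell and 5.46% rose, with a median of 0.02. The filter admitted 11 of these 19 genes through their WT level alone and Hist2h2ab through its Q344X level alone, so that count is a description. Of the 7 clustered genes with a mean of at least 10 in both groups, 5 fell (Hist1h1c, Hist3h2a, Hist1h2bc, Hist1h2bg and Hist1h4i) and 2 did not pass (Hist2h2be and Hist3h2ba), with a median of -1.73. All 10 replacement variants were tested, of which 3 rose (H3f3b, H2afy2 and H2afy), 0 fell and 7 did not pass, with a median of 0.64. All 10 had a mean of at least 10 in both groups.

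**Figure D1:**
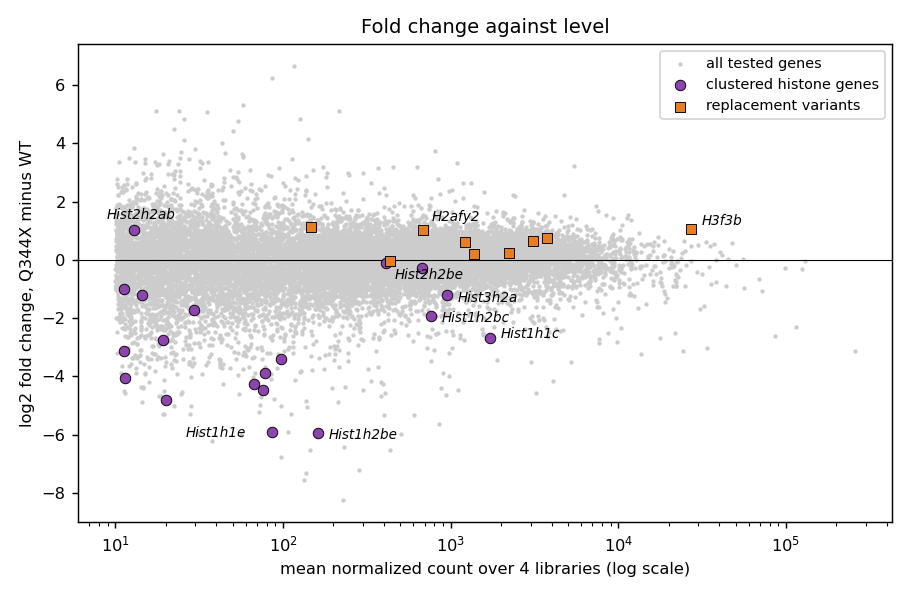
Log2 fold change, Q344X minus WT, on the log2(value + 1) scale against the mean normalized count over the 4 libraries (log axis), with every tested gene in grey, the 19 clustered histone genes as purple circles and the 10 replacement variants as orange squares. Clustered genes reach down to -5.96, while the replacement variants lie between -0.05 and 1.12.

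Of 5 tested linker genes, 3 fell and 2 did not pass (median -2.67), and the 3 were the clustered ones. Hist1h1d and Hist1h1e passed the filter only through WT; of the 3 linker genes with a mean of at least 10 in both groups, 1 fell (Hist1h1c) and the median was 0.24. Among 24 tested core histone genes, 10 fell, 3 rose and 11 did not pass (median -1.10), and the genes that fell were clustered and those that rose were replacement variants. Of the 14 core genes with a mean of at least 10 in both groups, 4 fell, 3 rose and 7 did not pass, with a median of -0.05, so both medians above follow the genes admitted through WT. Without WT replicate 1 or 2, where Hist1h1d fell under the filter, the linker median was -1.43 or -1.01.

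Hist1h1c encodes a somatic linker histone and had the highest mean count of the clustered genes. Its normalized counts were 428 and 485 in Q344X retinas, against 2352 and 3587 in WT retinas. Means were 456 ± 40.3 in Q344X and 2969.9 ± 873 in WT retinas (SD, n = 2 each), a 6.51-fold lower level in Q344X with a log2 fold change of -2.67 ± 0.25 (SE, limma adjusted p = 0.00559). The gene is a single exon at chr13:23738808-23740367 on the plus strand. Searched on both strands, 91.5% of its 50-base words occur in no other annotated gene. Hist1h1c made up 16.4% and 13.6% of all linker histone counts in Q344X retinas, against 52.1% and 59.1% in WT retinas.

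Hist1h1e, another somatic linker histone gene (chr13:23620629-23622558, minus strand), was close to 0 in the Q344X libraries. It had 6.93 and 0 normalized counts in Q344X retinas, against 180 and 158 in WT retinas, a log2 fold change of -5.91 ± 0.94 (limma adjusted p = 0.0179). Its exon shares 496 bases on the same strand with an annotated exon of Hist1h2be, so reads there could belong to either gene. Hist1h1d, the remaining tested linker gene of the cluster, had 0.990 and 1.92 normalized counts in Q344X and 27.0 and 15.04 in WT retinas (log2 fold change -3.14 ± 0.60, adjusted p = 0.0275). These are 3 reads against 41, a ratio of WT to Q344X of 14.3 after scaling, with an exact 95% interval of 4.57 to 72.3 for counting error only. For all 3 genes the groups did not overlap, as for 31.7% of tested genes in that direction. With no filter on low counts the calls of Hist1h1d and Hist1h1e were lost (adjusted p = 0.0636 and 0.0702), and without either WT library Hist1h1d fell under the filter.

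**Figure D2:**
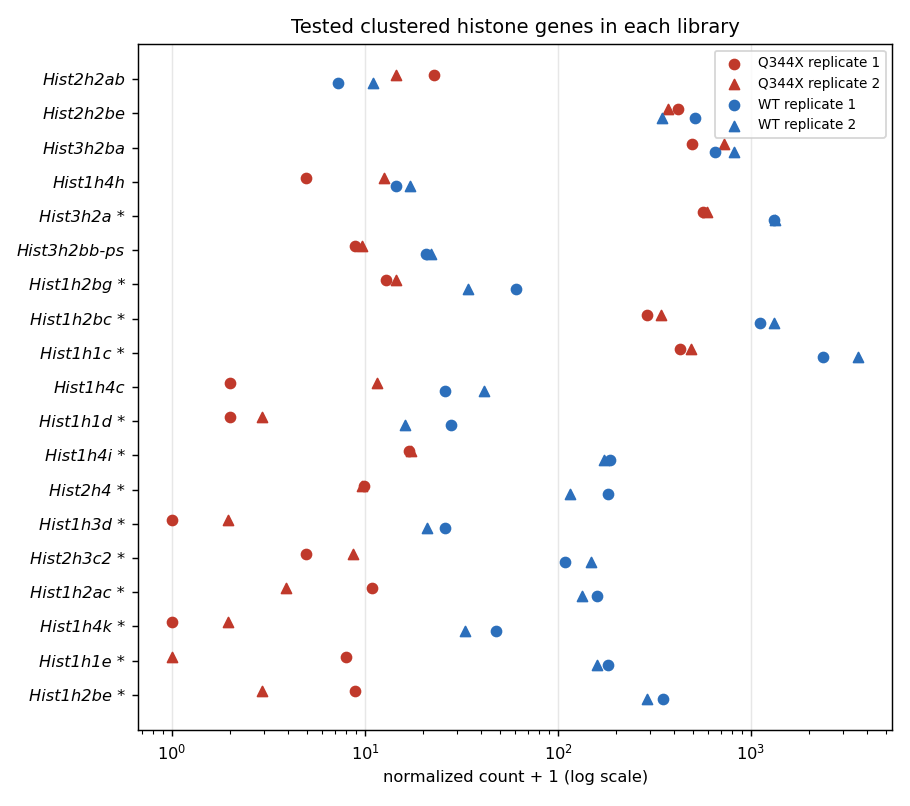
Normalized count + 1 (log axis) of the 19 tested clustered histone genes in each library, ordered by fold change, with Q344X libraries in red above the WT libraries in blue on each line and replicates as circles and triangles. An asterisk marks an adjusted p under 0.05, which 13 genes reached; Hist2h2be and Hist3h2ba are the 2 genes whose groups overlap.

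Clustered H2A genes were led by Hist3h2a, on chromosome 11 (chr11:58954685-58956830, plus strand), which encodes an H2A outside the large cluster. It had 563 and 590.3 normalized counts in Q344X retinas, against 1318 and 1334 in WT retinas, with a log2 fold change of -1.20 ± 0.17 (limma adjusted p = 0.0136). The call was lost without WT replicate 2 (adjusted p = 0.0501), and 708 of its bases also belong to an exon of Trim17 on the same strand. Hist1h2ac, in the chromosome 13 cluster, had 9.90 and 2.88 normalized counts in Q344X retinas and 158 and 132 in WT retinas, which is 22.7-fold lower in Q344X (log2 fold change -4.49 ± 0.54, adjusted p = 0.00974). Hist2h2ab went the other way without passing the test, at 21.8 and 13.4 normalized counts in Q344X and 6.24 and 10.03 in WT retinas (log2 fold change 1.02 ± 0.50, adjusted p = 0.204). Its exon overlaps Gm15444 on the opposite strand, and whether the counting used strand is not known here. It was the only tested clustered gene whose Q344X libraries both lay above the WT libraries.

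The tested clustered H2B genes ranged in log2 fold change between -5.96 and -0.10. Hist1h2bc, an H2B gene with an annotated transcript of 2 exons (chr13:23684199-23692908, plus strand), had 287 and 341 normalized counts in Q344X retinas, against 1107 and 1308 in WT retinas, 3.85-fold lower in Q344X (log2 fold change -1.94 ± 0.20, limma adjusted p = 0.00702). Hist1h2be had 7.92 and 1.92 normalized counts in Q344X retinas, against 350.5 and 288 in WT retinas. Its log2 fold change of -5.96 ± 0.56 was the largest fall of the tested histone genes on the log2(value + 1) scale (adjusted p = 0.00561). By the ratio of group means, Hist1h4k fell further (82.2-fold, against 64.9-fold for Hist1h2be). Hist1h2bg had 11.9 and 13.4 in Q344X and 59.3 and 33.1 in WT retinas, with a log2 fold change of -1.73 ± 0.41 (adjusted p = 0.0454). This last call was lost without WT replicate 1 (adjusted p = 0.244), with no filter (0.103) and under quantile normalization (0.0550).

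The other abundant H2B genes did not pass the test. Hist2h2be, on chromosome 3, had 418 and 370.5 normalized counts in Q344X retinas, against 512 and 346 in WT retinas (log2 fold change -0.10 ± 0.25, limma adjusted p = 0.808). Hist3h2ba, whose gene lies beside Hist3h2a on chromosome 11, had 495 and 726 in Q344X retinas, against 648 and 815 in WT retinas (log2 fold change -0.28 ± 0.25, adjusted p = 0.474). In both genes the groups overlapped. Per kilobase of exon, Hist3h2ba was the most abundant clustered gene of the Q344X retina, at 806 and 1182 normalized counts per kb, against 1055 and 1328 in WT retinas. Hist1h1c stood at 274 and 311 per kb in Q344X retinas, against 1508 and 2300 in WT retinas, so these genes changed places in the order of levels. The pseudogene Hist3h2bb-ps had 7.92 and 8.64 normalized counts in Q344X and 19.8 and 21.1 in WT retinas, and did not pass the test (adjusted p = 0.0989).

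Clustered H3 genes had the lowest summed level of the clustered classes per kilobase of exon, at 7.59 and 19.8 normalized counts per kb in Q344X retinas, against 136 and 181 in WT retinas. Hist2h3c2, on chromosome 3 (chr3:96238108-96239127, minus strand), had 3.96 and 7.68 normalized counts in Q344X retinas, against 108 and 147 in WT retinas, 22.0-fold lower in Q344X (log2 fold change -4.28 ± 0.42, limma adjusted p = 0.00628). Only 36.5% of its 50-base words occur in no other annotated gene, and its near copy Hist2h3c1 was at 0 in all libraries, so the level may be that of both. Hist1h3d had 0 and 0.960 in Q344X and 24.96 and 20.1 in WT retinas (log2 fold change -4.06 ± 0.65, adjusted p = 0.0181). This is 1 read against 44, a ratio of WT to Q344X of 46.1 with a 95% interval of 7.85 to 1861, and the gene fell under the filter without either WT library. Hist1h3e, the next in level, had 0 and 3.84 in Q344X retinas, against 3.12 and 5.01 in WT retinas, and was too low to test.

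Of 5 tested clustered H4 genes, 3 fell and 2 did not pass; 4 of the 5 were admitted through their WT level alone, and Hist1h4i was the one with a mean of at least 10 in both groups. Hist1h4i (chr13:22040636-22041362, minus strand) had 15.8 and 16.3 normalized counts in Q344X retinas, against 185 and 172 in WT retinas, 11.1-fold lower in Q344X (log2 fold change -3.40 ± 0.26, limma adjusted p = 0.0048). Hist2h4 had 8.91 and 8.64 in Q344X retinas, against 180 and 114 in WT retinas (log2 fold change -3.89 ± 0.35, adjusted p = 0.00532), and 99.0% of its 50-base words are unique to it. In both genes the Q344X libraries lay within a narrow range far below WT. Hist1h4k, of which only 28.5% is unique, had 0 and 0.960 in Q344X and 46.8 and 32.1 in WT retinas (log2 fold change -4.83 ± 0.61, adjusted p = 0.0107), which is 1 read against 77 and a ratio of WT to Q344X of 80.7 (95% interval 14.1 to 3227). Hist1h4c, at 0.990 and 10.6 in Q344X and 24.96 and 40.1 in WT retinas, did not pass (adjusted p = 0.0846). Its log2 fold change ran between -4.04 and -1.50 over the fits that left out 1 library. Hist1h4h, at 3.96 and 11.5 in Q344X and 13.5 and 16.04 in WT retinas, did not pass either (adjusted p = 0.284).

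The other 43 clustered genes were too low to test, with no mean above 9.90 normalized counts (Hist1h2bh, just under the filter; Hist1h1d, just above it, had 11.2). Together they summed to 21.8 and 27.8 normalized counts in Q344X retinas, against 142 and 201 in WT retinas. In 22 of them both Q344X libraries were below both WT libraries, in 1 they were above, and 20 overlapped. Over all 62 clustered genes these counts were 38 below, 2 above and 22 overlapping, beside 25.3% of all genes above 0 whose Q344X libraries were both below both WT libraries. No read was found in either Q344X library for 20 clustered genes, and in neither WT library for 4, counts not compared with the share over all genes. Among the 20, unique 50-base words made up 6% for Hist1h2af but 100% for Hist1h1b. The clustered genes at 0 in all libraries had at most 17.2% unique words, so a 0 there need not mean an absent transcript. All 1825 exon bases of Hist2h3c1, one of them, are shared with Gm20634 on the same strand. Hist1h2al, annotated as a processed pseudogene of H2A on chromosome 13 outside the cluster, with 32.4% of its 50-base words unique, had 25 WT reads and none in Q344X retinas, at least 8.73-fold lower when the Q344X group is set to 3 reads, and for the H2B gene Hist1h2bj, with 24 WT reads, the fall was at least 8.38-fold. Values of Hist2h2aa1, Hist2h2aa2, Hist2h2bb and Hist2h3b are uncertain, since no 50-base word of them is unique to 1 gene when both strands are searched. Each is covered over its whole exon by an annotated gene on the opposite strand.

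Replacement linker histones did not pass the test. H1f0, the linker histone of differentiated cells, had 2062 and 2767 normalized counts in Q344X retinas, against 1869 and 2192 in WT retinas (log2 fold change 0.24 ± 0.22, limma adjusted p = 0.468). H1fx had 110 and 304 in Q344X retinas, against 65.5 and 107 in WT retinas (log2 fold change 1.12 ± 0.52, adjusted p = 0.186). Its replicates were spread by more than the gap between the nearest libraries of the groups. Without Q344X replicate 1 the log2 fold change of H1fx was 1.85, from a fit that held no spread within Q344X.

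Among the replacement H2A genes, the macroH2A genes rose. H2afy and H2afy2 encode H2A variants with a large macro domain, linked to silent chromatin. H2afy (chr13:56073619-56136361, minus strand, outside the histone cluster) had 4603 and 4722 normalized counts in Q344X retinas, against 2800 and 2817 in WT retinas, 1.66-fold higher (log2 fold change 0.73 ± 0.16, limma adjusted p = 0.0388). H2afy2 had 948 and 869.6 in Q344X retinas, against 461 and 440.2 in WT retinas, 2.02-fold higher (log2 fold change 1.01 ± 0.18, adjusted p = 0.0229). In both genes the libraries of a genotype lay close together and the genotypes did not overlap, as for 31.4% of tested genes in that direction. Exons of both overlap a gene on the opposite strand (Gm47071 for H2afy, Aifm2 for H2afy2). The calls rested on both WT libraries: without WT replicate 1 or 2 the adjusted p was 0.283 or 0.240 for H2afy and 0.0911 or 0.116 for H2afy2, and with no filter 0.0801 and 0.0592.

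The remaining H2A variants were not past the threshold. H2afz, which encodes H2A.Z, a variant of promoters and enhancers, had 1179 and 1802 normalized counts in Q344X retinas, against 856 and 1045 in WT retinas (log2 fold change 0.62 ± 0.26, limma adjusted p = 0.148). H2afv, the other gene for H2A.Z, had 981 and 2014 in Q344X retinas, against 1035 and 1472 in WT retinas (log2 fold change 0.19 ± 0.37, adjusted p = 0.751). H2afx, whose product is phosphorylated at DNA breaks, had 288 and 575 in Q344X retinas, against 336 and 529 in WT retinas (log2 fold change -0.05 ± 0.39, adjusted p = 0.936). H2afj had 347 and 507 in Q344X retinas, against 381 and 496 in WT retinas (log2 fold change -0.05 ± 0.26, adjusted p = 0.901). For these last 3 genes the groups overlapped.

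H3f3b and H3f3a encode the same protein, the replacement histone H3.3, which is placed in chromatin outside replication. H3f3b (chr11:116021912-116027962, minus strand) had the highest count of the histone genes in every library, with 33786 and 40028 normalized counts in Q344X retinas, against 17044 and 17989 in WT retinas, 2.11-fold higher (log2 fold change 1.07 ± 0.19, limma adjusted p = 0.0243). H3f3a had 3145 and 4451 in Q344X retinas, against 2320.1 and 2461 in WT retinas, and did not pass (log2 fold change 0.65 ± 0.22, adjusted p = 0.0989), although its groups did not overlap either. The call of H3f3b was lost when either WT library was left out (adjusted p = 0.0777 for replicate 1, 0.0662 for replicate 2) and with no filter (0.0750). Without Q344X replicate 1, by contrast, log2 fold changes were 0.90 for H3f3a, 0.93 for H2afz and 0.71 for H2afv. That fit held no spread within Q344X, so its adjusted p-values cannot be set beside those with all libraries. The size of the rise in the replacement variants thus depended on single libraries.

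**Figure D3:**
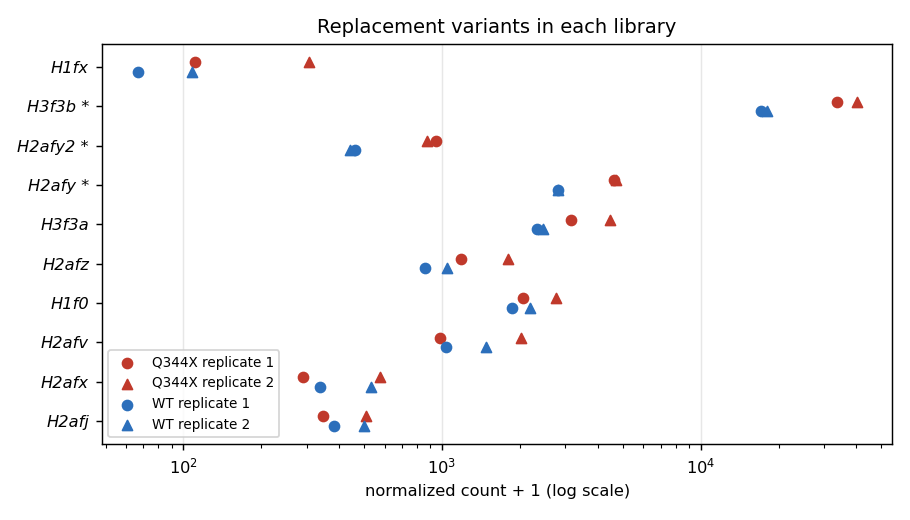
Normalized count + 1 (log axis) of the 10 replacement variants in each library, ordered by fold change, with Q344X libraries in red above the WT libraries in blue and replicates as circles and triangles. An asterisk marks an adjusted p under 0.05, reached by H3f3b, H2afy2 and H2afy, whose Q344X libraries all lie to the right of the WT libraries.

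Summed over genes, the clustered and replacement classes differed from WT in opposite directions. Clustered genes summed to 2314 and 2638 normalized counts in Q344X retinas, against 7463 and 8791 in WT retinas, a ratio of 0.305. Replacement variants summed to 47449 and 58039 in Q344X retinas, against 27166 and 29550 in WT retinas, a ratio of 1.86. The clustered share of all histone counts was 4.65% and 4.35% in Q344X retinas, against 21.6% and 22.9% in WT retinas, and per kilobase of exon it was 10.6% and 10.5% in Q344X retinas, against 37.3% and 39.1% in WT retinas. H3f3b alone made up 67.9% and 66.0% of histone counts in Q344X retinas, against 49.2% and 46.9% in WT retinas. These sums are carried by few genes, and without Hist1h1c, Hist1h2bc, Hist3h2a, Hist3h2ba and Hist2h2be the clustered genes summed to 123 and 127 in Q344X retinas, against 1527 and 1401 in WT retinas. No test was made on sums, since 2 against 2 libraries cannot give a permutation p below 0.333.

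By class, the ratio of the group means, Q344X over WT, was 0.0749 for clustered H3 and 0.104 for clustered H4. It was 0.146 for clustered H1, 0.394 for clustered H2A and 0.480 for clustered H2B. These ratios follow a few abundant genes. Hist3h2a alone held 577 of 606 mean counts of clustered H2A in Q344X and 1326 of 1537 in WT retinas. Hist1h2bc, Hist3h2ba and Hist2h2be held 314, 610 and 394 of 1350 for clustered H2B in Q344X retinas. In WT retinas they held 1207, 732 and 429 of 2810. The order of the classes was not compared without these genes. In the replacement classes the ratio was 1.24 for H1, 1.49 for H2A and 2.04 for H3. H3 thus held both the lowest and the highest ratio, again carried by few genes. Its clustered genes summed to 5.94 and 18.2 normalized counts in Q344X retinas, against 140.4 and 182 in WT retinas. Hist2h3c2 held 5.82 of 12.1 mean counts there in Q344X and 128 of 161 in WT retinas. H3f3a and H3f3b together summed to 36931 and 44479 in Q344X retinas, against 19364 and 20451 in WT retinas. H3f3b held 36907 of 40705 mean counts of these in Q344X and 17516.5 of 19907 in WT retinas. The summed rod markers had a ratio of 0.372, and the part of the rod share in the histone values was not tested.

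**Figure D4:**
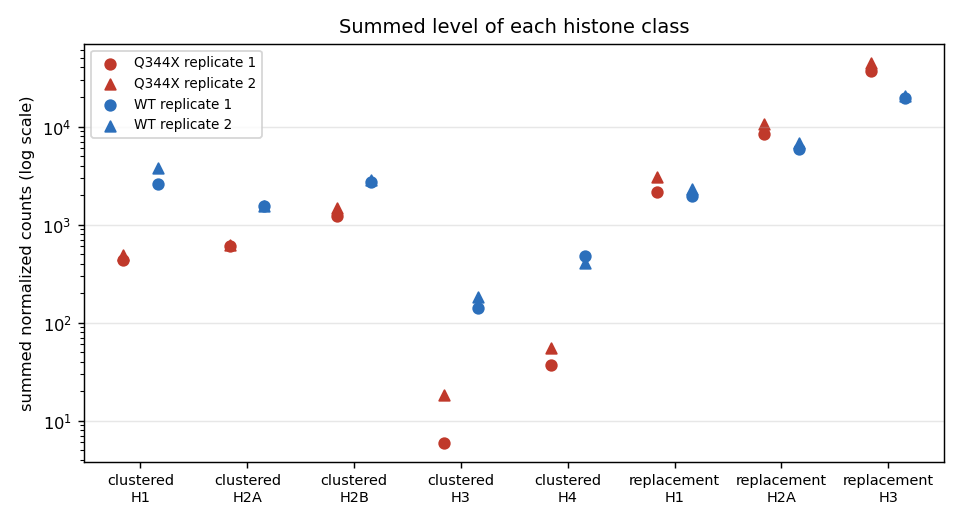
Summed normalized counts (log axis) of each histone class in each library, with Q344X libraries in red to the left of the WT libraries in blue and replicates as circles and triangles. All 5 clustered classes lie lower in Q344X retinas, and the replacement H2A and H3 classes lie higher in both Q344X libraries, while replacement H1 overlaps between the groups.

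The clustered genes lie in separate places. The chromosome 13 cluster has a first stretch of 17 genes (chr13:21716422-22043676), which summed to 22.8 and 24.0 normalized counts in Q344X retinas, against 265 and 251 in WT retinas, a ratio of 0.0907. A second stretch of 31 genes (chr13:23531050-23934851) summed to 767 and 885 in Q344X retinas, against 4372 and 5689.9 in WT retinas, a ratio of 0.164. The 9 genes of chromosome 3 summed to 454 and 403 in Q344X retinas, against 835 and 652 in WT retinas (ratio 0.577), and the 3 genes of chromosome 11 to 1066 and 1325 in Q344X retinas, against 1985 and 2169.7 in WT retinas (ratio 0.575). The lowest summed ratios were those of chromosome 13, but the sums rest on few genes. On chromosome 3, Hist2h2be alone held 418 and 370.5 of the counts in Q344X retinas, and 512 and 346 in WT retinas. Of the other tested genes there, Hist2h3c2 and Hist2h4 had ratios of 0.0455 and 0.0596, and Hist2h2ab one of 2.17. In the chromosome 13 cluster 12 genes were tested and 10 fell, but 8 of the 12, with 6 of the falls, were admitted through their WT level alone, as were both genes that fell on chromosome 3. Among genes with a mean of at least 10 in both groups, 4 of 4 fell on chromosome 13, 0 of 1 on chromosome 3 and 1 of 2 on chromosome 11. The difference between places was not tested.

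**Figure D5:**
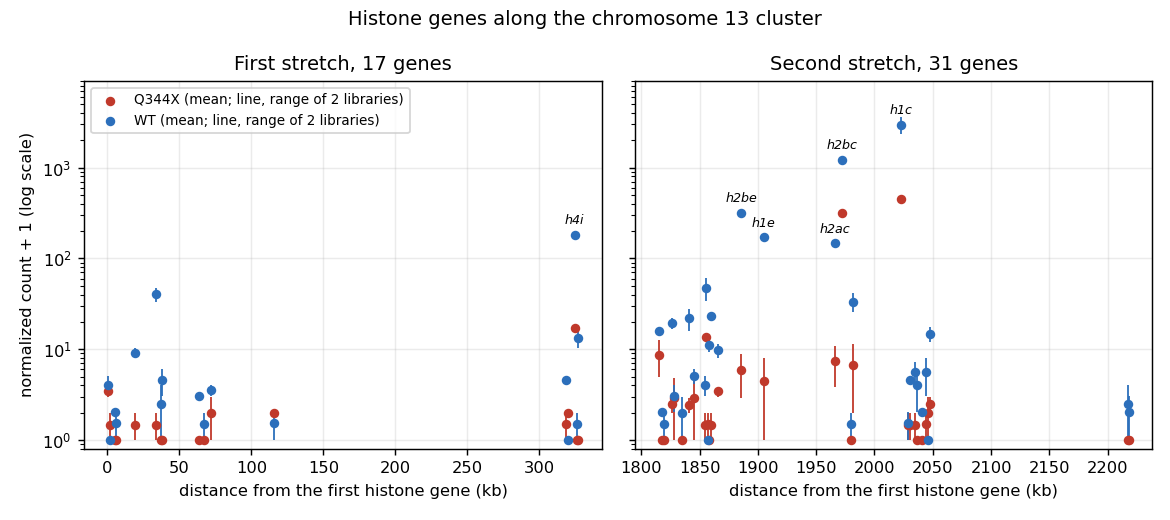
Normalized count + 1 (log axis) of the clustered histone genes of chromosome 13 by distance from the first histone gene of the cluster (kb), in its first (17 genes, left) and second stretch (31 genes, right), with the mean of the 2 Q344X libraries in red, that of the 2 WT libraries in blue, and lines for their range. The 6 labelled genes, Hist1h4i, Hist1h2be, Hist1h1e, Hist1h2ac, Hist1h2bc and Hist1h1c, have WT means above 100, and each lies lower in Q344X retinas.

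Some genes that are not histone genes but lie inside the chromosome 13 cluster were lower as well. Of 143 such genes, 28 were above 0 and 10 could be tested, of which 5 fell, 0 rose and 5 did not pass (median -1.69), beside 9.10% of all tested genes that fell. Of the 7 with a mean of at least 10 in both groups, 3 fell and the median was -0.52. Slc17a1, a phosphate transporter gene, had 22.8 and 12.5 normalized counts in Q344X retinas, against 112 and 109 in WT retinas (log2 fold change -2.64 ± 0.37, limma adjusted p = 0.0130). Gm46404 had 70.3 and 45.1 in Q344X retinas, against 400.4 and 296 in WT retinas (log2 fold change -2.59 ± 0.31, adjusted p = 0.0094). Trim38, a ubiquitin ligase gene, and Gm11337 fell as well, by 2.53 and 3.89 on the log2 scale, both with fewer than 30 normalized counts in each WT library and admitted to the test through their WT level alone. Hfe was the fifth gene that fell. Gm11337 came under the filter without either WT library, and Trim38 without WT replicate 2.

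The clustered genes were also grouped by the annotated ends of their transcripts, which the rule did not use. Of the 62, 22 had a transcript annotated for at least 100 bases beyond the stem-loop, a limit chosen after these lengths were seen, and 15 of the 22 held a poly(A) signal there (AATAAA or ATTAAA). In this group 13 could be tested, 11 fell, 0 rose and 2 did not pass, beside 9.10% of all tested genes that fell. However, 8 of the 13, with 7 of the falls, were admitted through their WT level alone. Of the 5 with a mean of at least 10 in both groups, 4 fell. Another 20 genes had a transcript that ended within 100 bases of the stem-loop, 1 with a poly(A) signal, and only Hist1h4h of these could be tested. For the last 20 no stem-loop was found in a transcript, 5 could be tested, and 2 fell, 1 of which was admitted through its WT level alone. Genes with the longer transcripts summed to 1561 and 1880.3 normalized counts in Q344X retinas, against 5659 and 6921 in WT retinas. Those whose transcripts ended near the stem-loop summed to 12.9 and 17.3 in Q344X retinas, against 63.4 and 80.2 in WT retinas.

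Transcripts known to lack a poly(A) tail were counted in all libraries as well. Of 17 such small RNAs listed, 4 could be tested and 0 passed in either direction, with sums of 238 and 227 normalized counts in Q344X retinas, against 70.7 and 400.05 in WT retinas. All annotated snRNA, snoRNA and scaRNA genes summed to 2009.7 and 1326 in Q344X retinas, against 1897 and 1296 in WT retinas. Of 33 tested, 3 fell and 0 rose, beside 9.10% of all tested genes that fell and 5.46% that rose. The spread of these sums within a genotype was as large as that between genotypes, and the part of the poly(A) selection in the histone values was not tested.

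Promoters of the members were read from RefSeq (GRCm38.p6), with 250 bases before and 50 after the start, and matched for 63 of 72 genes. Shown are the linker genes Hist1h1c and Hist1h1e and the H2B gene Hist1h2be, which fell, Hist3h2ba, which did not pass, and H3f3b, which rose. Capitals mark the octamer ATTTGCAT, the CCAAT box and the TATA box TATAAA, each searched on both strands, and no run of capitals below holds more than 1 motif. A second promoter of Hist1h2be (chr13:23621045-23621344, minus strand), inside Hist1h1e, is not shown. It held CCAAT but no octamer and no TATAAA, and in the counts below a motif in either promoter counts for the gene.
Hist1h1c, chr13:23738557-23738856, plus strand: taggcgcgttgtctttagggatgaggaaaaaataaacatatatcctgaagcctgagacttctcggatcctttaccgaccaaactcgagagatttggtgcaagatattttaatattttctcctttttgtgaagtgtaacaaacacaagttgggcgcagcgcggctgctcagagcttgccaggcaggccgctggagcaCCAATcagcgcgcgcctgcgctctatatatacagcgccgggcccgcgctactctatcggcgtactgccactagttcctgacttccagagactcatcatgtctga
Hist1h1e, chr13:23622509-23622808, minus strand: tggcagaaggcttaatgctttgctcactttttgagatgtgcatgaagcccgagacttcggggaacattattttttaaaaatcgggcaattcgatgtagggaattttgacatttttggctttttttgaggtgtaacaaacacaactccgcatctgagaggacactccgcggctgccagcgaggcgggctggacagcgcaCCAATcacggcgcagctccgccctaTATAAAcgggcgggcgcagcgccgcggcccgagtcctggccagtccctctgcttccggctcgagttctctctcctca
Hist1h2be, chr13:23585921-23586220, minus strand: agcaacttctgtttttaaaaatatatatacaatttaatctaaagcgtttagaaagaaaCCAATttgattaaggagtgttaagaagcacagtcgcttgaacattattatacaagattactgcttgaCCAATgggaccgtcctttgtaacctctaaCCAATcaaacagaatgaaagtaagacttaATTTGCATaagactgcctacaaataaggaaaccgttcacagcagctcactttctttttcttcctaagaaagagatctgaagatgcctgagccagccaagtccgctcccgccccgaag
Hist3h2ba, chr11:58948661-58948960, plus strand: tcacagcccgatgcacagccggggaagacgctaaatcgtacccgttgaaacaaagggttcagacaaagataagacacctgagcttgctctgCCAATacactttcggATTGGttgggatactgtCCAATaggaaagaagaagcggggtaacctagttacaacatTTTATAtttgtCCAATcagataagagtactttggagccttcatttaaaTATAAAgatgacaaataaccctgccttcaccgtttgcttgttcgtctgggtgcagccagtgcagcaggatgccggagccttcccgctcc
H3f3b, chr11:116024455-116024754, minus strand: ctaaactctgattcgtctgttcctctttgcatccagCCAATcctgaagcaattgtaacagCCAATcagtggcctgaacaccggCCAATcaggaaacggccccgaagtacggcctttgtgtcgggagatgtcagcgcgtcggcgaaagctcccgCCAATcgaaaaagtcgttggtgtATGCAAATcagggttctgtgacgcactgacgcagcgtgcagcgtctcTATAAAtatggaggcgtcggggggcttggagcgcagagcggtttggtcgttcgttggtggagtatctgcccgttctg
CCAAT stood in 46 of 54 clustered promoters, against 37.4% of 32851 promoters of the same length, TATAAA in 33 against 13.6%, and ATTTGCAT in 14 against 1.74%. The octamer was found in 7 of 15 clustered H2A and 7 of 13 clustered H2B promoters, and in none of those of H1, H3 and H4 genes. Among the 9 replacement promoters it stood in that of H3f3b alone, CCAAT stood in 6 and TATAAA in 1. Of the 11 matched promoters of clustered genes that fell, 4 held the octamer, 9 CCAAT and 7 TATAAA. Of the 4 matched promoters of tested genes that did not fall, 0, 3 and 2 held them. These sets are small and differ in histone class, and 8 of the 13 genes that fell were admitted through their WT level alone. The counts therefore only describe the sets, and a difference in motifs between them was not tested. A match describes letters and not a bound site.

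Genes that process, carry or accompany histones showed few calls, beside 9.10% of all tested genes that fell and 5.46% that rose. Of 22 tested genes of histone mRNA end processing and decay, 1 fell and 1 rose (median 0.11). Slbp, named in addition for its role, did not pass (log2 fold change 0.58 ± 0.19, adjusted p = 0.0883). Eri1, an exonuclease that trims the stem-loop end, had 269 and 255 normalized counts in Q344X retinas, against 535 and 520.4 in WT retinas (log2 fold change -1.01 ± 0.18, limma adjusted p = 0.0246). Snrpb, an Sm protein gene, was higher (log2 fold change 0.99 ± 0.21, adjusted p = 0.0352), while Srrt, at -0.02, and Cstf2t, at -0.06, did not pass. Of 29 histone chaperone genes, 3 rose and 0 fell (median 0.20). Chaf1b, a subunit of the chromatin assembly factor that loads histones at replication forks, had 51.5 and 41.3 normalized counts in Q344X retinas, against 9.36 and 7.02 in WT retinas (log2 fold change 2.37 ± 0.38, adjusted p = 0.0188), and was admitted to the test through its Q344X level alone. Of the 28 chaperone genes with a mean of at least 10 in both groups, 2 rose. Mis18a, which prepares centromeres for Cenpa, and Nap1l1, a chaperone of H2A and H2B, rose by 1.29 and 0.87 on the log2 scale, while Anp32e, a chaperone of H2A.Z, was at 0.14.

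Replication and mitosis genes were mixed, beside 9.10% of all tested genes that fell and 5.46% that rose. Of 30 tested genes of DNA replication and S phase, 2 fell and 4 rose (median 0.28): Ung, a uracil glycosylase, at 1.64 and Cdt1, an origin licensing factor, at 1.63 on the log2 scale, with Ccne1 and E2f3, against Tyms, thymidylate synthase, at -1.24 and Cdc45, a helicase factor, at -1.22. Of 20 mitosis genes, 1 fell and 1 rose (median -0.01). Spc25, a kinetochore subunit, had 378 and 525 normalized counts in Q344X retinas, against 2559 and 2765 in WT retinas (log2 fold change -2.58 ± 0.22, limma adjusted p = 0.0052), Foxm1, a mitotic transcription factor, was at 1.33, and Ccna2 and Bub1b, at -0.05 and 0.32, did not pass. The results of these lists moved with single libraries. Over the fits that left out 1 library, medians ran between 0.0049 and 0.21 for end processing and between 0.21 and 0.30 for replication genes. For mitosis genes they ran between -0.30 and 0.14.

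Calls near the threshold did so as well: without 1 WT library, replicate 1 or 2, those of Eri1, Snrpb, Mis18a, Nap1l1, Ccne1, Tyms, Cdc45, Foxm1, Hmgn3 and the neighbour Hfe were lost, as were those of Ung and E2f3 without WT replicate 1 (adjusted p = 0.0990 and 0.0980), of Mis18a, Ung and Ccne1 without Q344X replicate 2 (0.0795, 0.0648 and 0.0637) and of Foxm1 without Q344X replicate 1 (0.0620).

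Other proteins that bind or replace histones included larger rises. H1foo, a linker histone known from oocytes and outside the rule above, had 389 and 448 normalized counts in Q344X retinas, against 11.4 and 11.03 in WT retinas (log2 fold change 5.10 ± 0.25, limma adjusted p = 0.0027), while Cenpa, the centromeric H3 variant, did not pass (-0.75 ± 0.35, adjusted p = 0.190). Of 22 architectural chromatin proteins, 4 rose and 0 fell (median 0.48), beside 5.46% of all tested genes that rose and 9.10% that fell. Hmgb3, a protein that bends DNA, had 2002 and 2566 normalized counts in Q344X retinas, against 340.1 and 396 in WT retinas (log2 fold change 2.62 ± 0.21, adjusted p = 0.0048). Its relative Hmgb1 rose by 1.48 ± 0.16, and the nucleosome-binding proteins Hmgn2 and Hmgn3 rose by 1.40 ± 0.17 and 0.79 ± 0.17 on the log2 scale. Over the fits that left out 1 library, the median of the architectural list ran between 0.41 and 0.50.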

How the data were processed

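Poly(A)-selected RNA of mouse retina was sequenced on an Illumina HiSeq instrument from directional libraries, per the labels' protocols, in 2 Q344X and 2 WT libraries. By the design text, 3 replicates of each genotype were planned and some were dropped for RNA quality or as outliers. The extraction protocol counts 3 mutant mice but 2 wild-type mice. The authors deposited one signal per gene, which they name normalized counts, for 52636 genes. Every value above 0 is a whole multiple of 1 step per library (within 0.1 of a step), as gene counts divided by a size factor would be. The submitters' processing notes name FastQC, Trim Galore 0.4.4, STAR, featureCounts, DESeq2 1.16.1 and the build mm10. Their roles, the annotation, the strand setting and the handling of reads that match several genes were not given in the sources used here. Reads named in the text are deposited values divided by the worth of 1 read in their library, and no count model was fitted.

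Symbols, positions and transcripts were those of GENCODE M21 on GRCm38 (the same assembly as mm10), paired by Ensembl identifier. Genes with a mean of at least 10 were tested with limma 3.58.1 in R 4.3.3: log2(value + 1) on genotype, variances moderated along a trend (2 residual degrees of freedom, 3.90 from the prior), two-sided, with Benjamini-Hochberg adjustment over 16833 genes and a threshold of 0.05. Fold changes on this scale understate the change of low genes. The test was tested on simulated data. The members, the lists and the markers were chosen with earlier results of these data known, so lists are given by counts and medians without a test. Full values are given for each member past the threshold and for the 3 of each class with the highest mean, and up to 4 genes are named per list. Exact intervals at the 95% level, and lower bounds set at 3 reads per group, cover counting error only. As alternatives, the pseudocount was set to 0.5 or 5, the filter was dropped or raised to 50, libraries were scaled to the 75th percentile or quantile normalized, and each library was left out.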

Additional observations from a re-analysis of the deposited data

How the results depend on the processing

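Among the alternative values of single histone genes, 246 kept their direction and side of the threshold, 15 lost a call, 7 gained one and 8 turned direction. Directions turned for Hist2h2be (0.19 without WT replicate 1), H2afj (0.22 without Q344X replicate 1, 0.14 without WT replicate 2), H2afv (-0.33 without Q344X replicate 2, -0.07 without WT replicate 1) and H2afx (0.0051 under quantile normalization, 0.45 without Q344X replicate 1, 0.28 without WT replicate 2), none of which passed with all libraries. Over the fits without 1 library, Hist2h2be ran between -0.38 and 0.19, H2afj between -0.33 and 0.22, H2afv between -0.33 and 0.71 and H2afx between -0.55 and 0.45. Under all alternatives run, the clustered genes kept a negative median and none of them rose.

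With no filter, 383 genes fell and 153 rose of 30816, with a median of 0.0551. Then 0 replacement variants and 0 core genes rose, 1 linker gene fell, and the medians were -1.20 for clustered, -1.01 for core, 0.23 for other histone and -0.51 for neighbouring genes, of which 2 fell. No gene was called in the lists of end processing (0 lower, 0 higher) and DNA replication (0 lower, 0 higher), and 0 chaperone and 0 mitosis genes rose. With a minimum mean of 50, medians were -3.40 for clustered, -1.22 for linker, -0.10 for core, 0.16 for end processing, 0.42 for architectural, 1.08 for small RNA and -0.68 for neighbouring genes, 3 neighbours fell, and 1 chaperone and 0 mitosis genes rose. A pseudocount of 0.5 gave a clustered median of -2.99, and a pseudocount of 5 gave -1.98 for clustered, -0.82 for core, 0.44 for architectural and -1.29 for neighbouring genes. Scaling to the 75th percentile gave medians of -0.0371 for all genes, 0.052 for end processing and 0.42 for architectural genes, and a log2 ratio of -1.40 for summed clustered H2A. Quantile normalization gave medians of 0.0529 for all, -0.91 for core, 0.0578 for end processing, 0.41 for replication (0 lower, 7 higher), 0.17 for mitosis, 0.52 for architectural and -1.45 for neighbouring genes. The causes were not tested.

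Leaving out 1 library gave 904 to 3045 lower and 555 to 2388 higher genes. Such a fit takes its residual spread from 1 intact pair, so these counts cannot be set beside those with all libraries. The cause of their range was not tested. Clustered medians ran between -3.09 and -2.40, linker between -2.76 and -1.01 and core between -1.26 and -0.77, with 0 to 7 replacement, 0 to 6 core and 0 to 1 linker genes higher. Lower and higher counts were 0 to 1 and 0 to 8 for end processing (medians 0.0049 to 0.21), 0 to 1 and 1 to 6 for chaperones, 0 to 5 and 1 to 6 for replication, 1 to 5 and 0 to 2 for mitosis (medians -0.30 to 0.14), 0 to 1 and 3 to 8 for architectural genes (medians 0.41 to 0.50) and 0 to 1 and 0 to 2 for small RNAs (medians -1.37 to 0.85). Of the neighbours 3 to 7 fell (medians -1.74 to -0.65). Log2 ratios of summed levels ran from -3.03 to -2.48 for clustered H1, -1.19 to -0.94 for H2B, -4.76 to -3.15 for H3 and -3.59 to -3.01 for H4. No paired analysis was possible because the labels give no replicate numbers, which were assigned in accession order and pair no samples. Depth limits the 43 untested clustered genes, where 1 read is close to 1 normalized count.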
